A study of Mus musculus with 18 samples.

Results

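Organoids grown from the mid colon of the mouse were sequenced after culture in a differentiation medium or in a control medium that keeps them proliferating. Organoids are small hollow cultures of epithelial cells that renew themselves from stem cells. The members described here are the genes measured in the 6 mid libraries, 3 in differentiation medium and 3 in control medium, that reached at least 1 FPKM in at least 3 of them. FPKM corrects the fragments counted for each gene by its length and by the size of the library, so levels of different genes can be compared on it. This left 11732 of the 56748 genes in the table, 10480 of them protein-coding. Of these, 9684 reached the minimum in all 6 libraries. A further 399 reached it in every differentiation library and no control library, and 633 in every control library and no differentiation library, so those 2 sets could hardly fail to differ.

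The differentiation group is labelled only as differentiation media, and no source used here gives the composition of that medium. The control group received ENR, a medium named for EGF, Noggin and R-spondin, with Wnt3a-conditioned medium. Both media were given 3 days after passaging, and all libraries are poly-A selected RNA. The wider study holds the same pair of media for proximal and distal colon organoids, 18 libraries in all, and these serve here as comparison for the mid response. The labels list the mid colon organoids as a cell line and give no strain, age or sex. Whether the 3 libraries of a group come from separate animals or cultures is not stated. The p-values of the gene tests rest on a spread pooled over the groups of all 18 libraries, proximal and distal ones included. They reach no further than the spread among these libraries. The libraries' strand handling is not stated, so reads of overlapping or antisense genes cannot be told apart.

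In the colon, stem cells at the crypt base divide under Wnt, R-spondin and Notch signals, with EGF driving growth and BMP signals held back. Their daughters leave this zone, stop dividing and become absorptive colonocytes, mucus-making goblet cells, hormone-making enteroendocrine cells or chemosensory tuft cells. Mature colonocytes at the surface take up salt, water and short-chain fatty acids, burn the fatty acids in their mitochondria, and carry a brush border of microvilli under a coat of glycoproteins.

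The mid libraries held 16992726 to 19938198 recovered reads. Correlations of log2(FPKM + 1) between replicates of a mid group ranged from 0.977 to 0.988. All 8 epithelial markers, among them Epcam, Cdh1 and Cdx2, passed the filter, with sums of 8190.2 to 9147 FPKM in differentiation medium and 5557 to 7507 FPKM in control medium. Of 10 fibroblast and muscle markers 1 passed, and the list summed to 2.34 to 3.59 FPKM in differentiation medium and 0.323 to 0.559 FPKM in control medium, most of it the receptor gene Pdgfrb. Of 8 immune markers 1 passed, and the list summed to 0.4397 to 1.19 FPKM in differentiation medium and 1.85 to 2.39 FPKM in control medium, while no marker of 5 endothelial and 6 neural ones passed. Between 1 and 4 markers of each of these 4 lists had no read in any mid library. The libraries also differed in make-up: mitochondrially encoded genes held 4.56 ± 0.346% of reads in differentiation medium and 2.50 ± 0.209% in control medium (SD, n = 3 each). That gap has an exact two-sided permutation p of 0.1, the smallest that 3 against 3 allows, and the part of RNA quality or library make-up in the results below was not tested.

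The change of medium moved most of the transcriptome. At an adjusted p under 0.05 (limma on log2(FPKM + 1), Benjamini-Hochberg over the 11732 genes), 7854 genes were called, which is 66.9% of those tested. Of these, 3915 were higher in differentiation medium (33.4%) and 3939 were lower (33.6%). When FPKM was rescaled so that each library's summed reads set its size, the split moved to 2363 higher (20.1%) and 5737 lower (48.9%), and the median log2 fold change of all genes shifted to -0.348, against 0.0064 on the deposited scale. Every direction below is therefore relative to the deposited scale. The 3 libraries of one medium all lay above the 3 of the other for 76.1% of genes, 38.1% with differentiation above and 38.0% with control above. Changes were often large: 1639 called genes were at least 2-fold higher and 1759 at least 2-fold lower on the fitted scale. On that scale large changes were more often upward, with 166 called genes at least 8-fold higher and 52 at least 8-fold lower. Adding 1 before taking the log shrinks the fold of genes with low values. The ranking of rises and falls by size therefore holds for the fitted scale only.

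**Figure D1:**
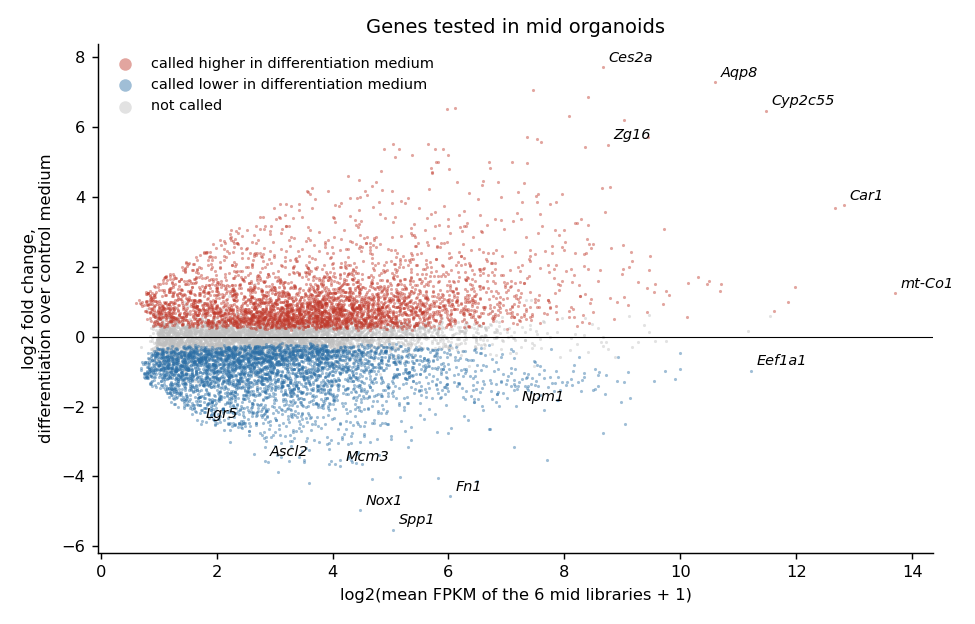
The horizontal axis gives the mean level of each of the 11732 genes over the 6 mid libraries as log2(FPKM + 1), and the vertical axis gives the log2 fold change of differentiation over control medium. Red points are the 3915 genes called higher and blue points the 3939 called lower; the rises reach 7.72 and the falls -5.52.

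On the deposited scale, calls were split unevenly over levels and gene classes. Among the 25% of genes with the highest mean FPKM (above 18.4), 49.7% were called higher and 25.3% lower, but after rescaling 978 of these 2933 genes were called higher and 1138 lower. Among the 25% with the lowest (up to 3.09), 21.8% were called higher and 38.3% lower (416 and 1499 of 2933 genes after rescaling). Long non-coding RNAs were called higher in 185 of 438 cases and lower in 81 (129 and 119 after rescaling), with a median log2 fold change of 0.33. Small nucleolar RNAs, which guide modification of ribosomal RNA and mostly lie in introns, were called higher in 1 of 46 cases and lower in 16. These short RNAs are poorly captured by poly-A selection, so their values are rough. Processed pseudogenes, whose reads can be borrowed from their parent genes, were called higher in 67 of 520 cases and lower in 198.

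The genes at the top of each group show the same turn. By FPKM, the 10 highest genes in differentiation medium were mt-Co1, Car1, Lypd8, mt-Cytb, Cyp2c55, mt-Nd1, Rn18s-rs5, Krt8, Aqp8 and Lgals4. In control medium they were mt-Co1, Eef1a1, mt-Nd1, Krt8, Rn18s-rs5, mt-Cytb, Krt19, S100a11, Rplp1 and Eef2. Car1, a carbonic anhydrase of colonocytes, had 12674, 13397 and 14183 FPKM in differentiation medium, against 916, 1196 and 864 FPKM in control medium. Lypd8, a secreted protein that keeps bacteria away from the surface, had 10777, 10878 and 14679.6 FPKM in differentiation medium, against 755, 933 and 1179 FPKM in control medium. Both stood about an order of magnitude higher in every differentiation library. Eef1a1, the elongation factor of protein synthesis, moved the other way, with 1648, 1768 and 1413 FPKM in differentiation medium, against 3247, 3211 and 3005 FPKM in control medium (log2 fold change -0.98 ± 0.17, adjusted p = 0.00015, but 0.114 when genes of any level were fitted).

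The largest rise on the fitted scale was that of Ces2a, a carboxylesterase that splits lipid and drug esters. It had 905, 599.5 and 908 FPKM in differentiation medium, against 3.74, 2.88 and 1.89 FPKM in control medium, a log2 fold change of 7.72 ± 0.27 (adjusted p = 3.87e-11). Cyp4f14, a cytochrome P450 that hydroxylates fatty acids, had 724, 601 and 697 FPKM in differentiation medium, against 6.33, 5.34 and 3.05 FPKM in control medium. The arachidonic acid metabolising P450 Cyp2c55 had 6289, 5434 and 5258 FPKM in differentiation medium, against 107, 72.3 and 31.8 FPKM in control medium. None of these groups overlapped, and the log2 fold changes of the 2 P450 genes were 6.88 and 6.47. Slc26a3, the chloride-bicarbonate exchanger of the colonocyte surface, had 579, 485 and 543 FPKM in differentiation medium, against 10.7, 5.64 and 2.99 FPKM in control medium, and Guca2a, which encodes the hormone guanylin, had 1541, 1207 and 1356 FPKM in differentiation medium, against 27.2, 25.4 and 22.3 FPKM in control medium. Again every differentiation library was above every control library. The remaining 15 of the 20 largest rises, all with log2 fold changes between 5.37 and 7.28, included the water channel Aqp8, the carbonic anhydrase Car4, the protease Prss30, the sugar-phosphate carrier Slc37a2, the transglutaminase Tgm3, the acute-phase protein Saa1, the dipeptidase Dpep1, the selenium carrier Selenop, the retinol-binding protein Rbp2 and the peptide transporter Slc15a1. Ces2a, Ces2c and Ces2e are neighbouring copies of one family, as are the Cyp2c and Clca4 genes, and reads shared between copies may be split between them.

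**Figure D2:**
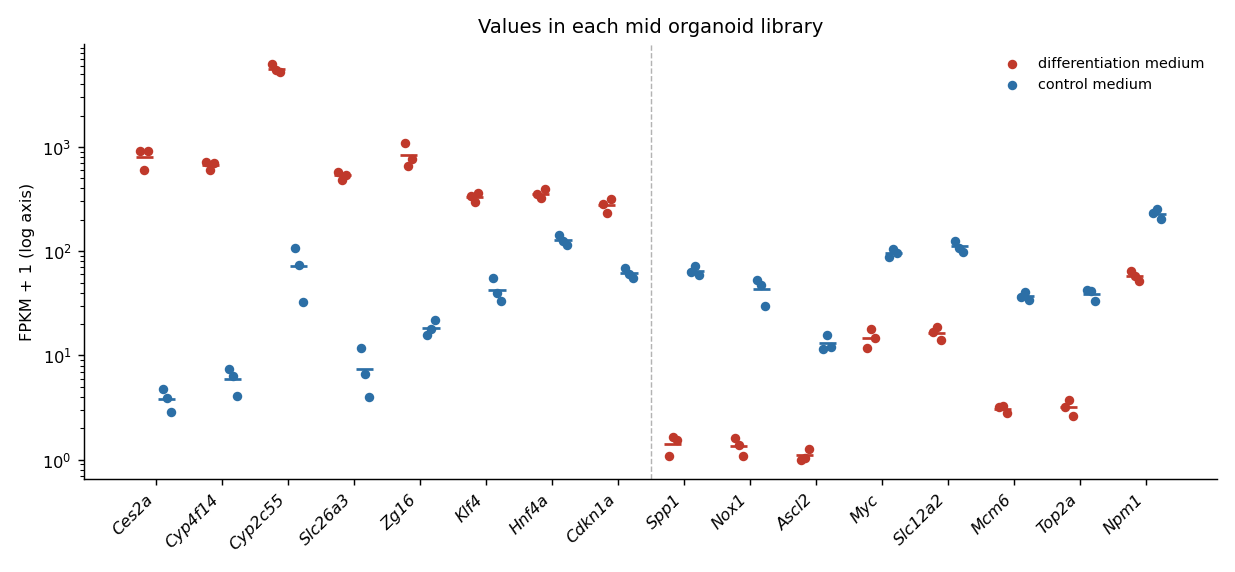
Each point is 1 mid library, with FPKM + 1 on a log axis for 16 genes, differentiation medium in red at the left of each pair and control medium in blue at the right; short lines are group means. For the 8 genes left of the dashed line every differentiation library is above every control library, and for the 8 genes right of it every differentiation library is below.

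Surface colonocyte genes rose almost as a block: of 30 that passed the filter, 28 were called higher and none lower, with a median log2 fold change of 3.78 against 0.0064 over all genes. After rescaling to summed reads, 27 were called higher and none lower. Krt20, the keratin of differentiated colonocytes, had 717, 621 and 935 FPKM in differentiation medium, against 27.97, 36.8 and 55.3 FPKM in control medium (log2 fold change 4.24 ± 0.51). Tmigd1, an adhesion protein of the brush border, had 59.97, 61.1 and 117 FPKM in differentiation medium, against 0.698, 1.74 and 0.959 FPKM in control medium. Muc3, a mucin anchored in the apical membrane, had 306, 422 and 478 FPKM in differentiation medium, against 36.2, 28.96 and 20.2 FPKM in control medium. The members without a call were Sult1a1 (log2 fold change 0.46) and Guca2b (-0.18), the gene for uroguanylin. Guca2b had 7.76, 4.47 and 6.55 FPKM in differentiation medium, against 6.05, 6.81 and 8.596 FPKM in control medium, so its libraries overlapped although those of its sister gene Guca2a did not.

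Promoter letters were read for the genes that rose most. RefSeq start sites (GRCm38.p6, a build other than that of the expression table, matched by symbol) gave a window of 250 bases before to 50 after the start for 8660 of the 11732 genes. Of 118 genes with a window and a called rise of at least 8-fold, 20.3% had a ratio of observed to expected CpG of at least 0.6, against 78.6% of all genes with a window. The letters TATAAA on either strand stood in 33.9% of these windows and in 8.70% of all. CAAAGTCCA, a common form of the site bound by the factor HNF4, stood in 7 of them (5.93%) and in 47 of all 8660 (0.543%). The windows of 3 genes that rose are shown as examples that hold these letters. They are the 150 bases before the start of Slc3a1 (chr17:85028197-85028346, plus strand), which encodes a subunit of an amino acid transporter, of Alpi (chr1:87101607-87101756, minus strand), the intestinal alkaline phosphatase, and of Cyp2c55 (chr19:39006869-39007018, plus strand). Capitals mark TATAAA or CAAAGTCCA on either strand, overlapping copies included (the run nearest the start of Slc3a1 holds TATAAA on both strands).
Slc3a1: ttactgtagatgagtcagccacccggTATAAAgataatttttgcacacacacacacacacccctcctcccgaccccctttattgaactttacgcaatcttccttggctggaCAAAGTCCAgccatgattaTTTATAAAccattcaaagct
Alpi: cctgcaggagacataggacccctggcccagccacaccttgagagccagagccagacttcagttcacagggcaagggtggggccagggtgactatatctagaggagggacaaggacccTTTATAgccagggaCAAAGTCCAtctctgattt
Cyp2c55: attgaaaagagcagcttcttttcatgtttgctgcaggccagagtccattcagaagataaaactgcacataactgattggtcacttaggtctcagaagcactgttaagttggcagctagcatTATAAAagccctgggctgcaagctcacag
Slc3a1 had 68.4, 34.5 and 87.1 FPKM in differentiation medium, against 0.376, 0.315 and 0.271 FPKM in control medium (log2 fold change 5.51 ± 0.505). Alpi, usually taken as a marker of the small intestine, had 41.9, 39.4 and 103 FPKM in differentiation medium, against 1.24, 2.405 and 2.94 FPKM in control medium (log2 fold change 4.18 ± 0.43). A match of letters is a description and shows no binding.

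Of 21 genes of the microvillus, 17 were called higher and 4 lower (median log2 fold change 1.59). The actin bundler Espn had 19.8, 16.3 and 20.7 FPKM in differentiation medium, against 0.745, 0.624 and 0.433 FPKM in control medium. Myo1a, the brush border myosin, had 378, 354 and 321 FPKM in differentiation medium, against 39.8, 34.5 and 38.99 FPKM in control medium, and the protocadherins Cdhr2 and Cdhr5, which tie microvilli together, changed by 2.65 ± 0.33 and 3.27 ± 0.19 on the log2 scale. The membrane linkers split: Ezr, the ezrin of polarised epithelium, rose by 0.701 on the log2 scale (not called after rescaling, 0.27), while its relative Msn, or moesin, had 1.92, 4.08 and 3.79 FPKM in differentiation medium, against 22.6, 30.5 and 51.3 FPKM in control medium, a log2 fold change of -3.03 ± 0.505. The other falls were Rdx (-0.42), Baiap2l2 (-1.71) and Plekhs1 (-2.65).

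Of 28 ion and water transport genes tested, 16 were called higher and 8 lower, without a separate list for absorption and secretion. Among the genes of salt absorption, Slc9a3, the sodium-hydrogen exchanger of the apical membrane, had 121, 101 and 125 FPKM in differentiation medium, against 1.31, 1.66 and 2.64 FPKM in control medium (log2 fold change 5.37 ± 0.32). Atp12a, the proton-potassium pump of the colon, had 109, 97.6 and 117 FPKM in differentiation medium, against 3.3996, 2.23 and 1.76 FPKM in control medium. Scnn1a, a subunit of the epithelial sodium channel, had 54.1, 49.4 and 63.9 FPKM in differentiation medium, against 11.4, 9.37 and 11.2 FPKM in control medium (log2 fold change 2.28 ± 0.13), and Nr3c2, the mineralocorticoid receptor, rose by 2.53 on the log2 scale. The named genes of chloride secretion were lower. Slc12a2, which loads chloride from the blood side, had 15.6, 17.9 and 13.2 FPKM in differentiation medium, against 125, 107 and 97.97 FPKM in control medium (log2 fold change -2.75 ± 0.29). Kcne3, a subunit of the potassium channel that supports secretion, had 0.5899, 1.13 and 0.613 FPKM in differentiation medium, against 23.96, 21.5 and 14.3 FPKM in control medium, and the log2 fold change of its partner Kcnq1 was -1.99. Cftr, the chloride channel itself, had 2.12, 2.71 and 1.41 FPKM in differentiation medium, against 6.38, 5.63 and 6.27 FPKM in control medium (log2 fold change -1.23 ± 0.39). Every absorptive gene named here was higher, and every secretory gene lower, in all differentiation libraries. The named genes are a selection, and the 28 genes were not sorted by role, so no such split is shown for the whole list.

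The lists of nutrient transporters are small, and their calls are set here beside the 33.4% higher and 33.6% lower over all genes. Slc5a8, which takes up short-chain fatty acids with sodium, had 56.8, 41.4 and 25.3 FPKM in differentiation medium, against 1.42, 0.556 and 0.4804 FPKM in control medium (log2 fold change 4.498 ± 0.34). Slc16a1, a monocarboxylate carrier, rose by 1.91 on the log2 scale, and 3 of 8 genes of short-chain fatty acid handling were called higher and 1 lower. Of 14 amino acid and peptide transporters, 6 were called higher and 5 lower. The risers included Slc3a1, Slc15a1 and Slc6a19, the last a brush border carrier with 3.79, 1.82 and 5.55 FPKM in differentiation medium, against 0.0284, 0.0306 and 0.0205 FPKM in control medium. Of the genes that fell, Slc7a5, a leucine carrier, had 2.65, 3.33 and 1.93 FPKM in differentiation medium, against 21.4, 19.7 and 15.4 FPKM in control medium, while Slc38a1 and Slc1a5, which carry glutamine, changed by -2.05 and -1.68 on the log2 scale, Slc7a1, which carries arginine, by -1.79 and Slc7a11, which carries cystine, by -1.12.

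Genes of mitochondrial energy supply were mostly higher. Fatty acid oxidation and PPAR target genes were called higher in 26 of 32 cases and lower in 1, and after rescaling in 19 and 3. Cpt1a, the gate for fatty acids into mitochondria, had 65.3, 67.8 and 58.6 FPKM in differentiation medium, against 17.3, 14.8 and 15.5 FPKM in control medium (log2 fold change 1.95 ± 0.16). Angptl4, a known PPAR target, was not called, with 0.908, 1.15 and 1.18 FPKM in differentiation medium, against 0.589, 0.895 and 1.24 FPKM in control medium (log2 fold change 0.14).

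In the tricarboxylic acid cycle 12 of 20 genes were called higher and none lower, but 9 higher and 4 lower after rescaling, and 1 lower without control replicate 3. Pcx, which makes oxaloacetate, led with a log2 fold change of 2.34 ± 0.29, and Cs, citrate synthase, had 159, 151 and 144 FPKM in differentiation medium, against 63.4, 61.2 and 56.9 FPKM in control medium. Of 41 nuclear genes of the respiratory chain 32 were called higher and none lower, against 16 and 2 after rescaling, so this list's small median change of 0.66 depends on the scale. Of the 13 genes encoded by the mitochondrial genome 12 were called higher (median log2 fold change 1.499). The size varied within that single transcribed genome: mt-Atp6 had 716, 411 and 441 FPKM in differentiation medium, against 80.9, 36.8 and 48.6 FPKM in control medium (log2 fold change 3.24 ± 0.49), while mt-Nd1 had 5392, 4858 and 4656 FPKM in differentiation medium, against 2418, 2744 and 2307 FPKM in control medium (log2 fold change 0.998 ± 0.18, no longer called when genes of any level were fitted, adjusted p = 0.154). mt-Nd3 alone was not called (log2 fold change 0.54).

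Detoxification genes formed another large group: 31 of 41 xenobiotic metabolism genes were called higher and 2 lower, with a median log2 fold change of 2.12. Besides the esterases and P450 genes above, Abcb1a, the drug pump P-glycoprotein, had 871, 815 and 835 FPKM in differentiation medium, against 44.7, 38.7 and 42.5 FPKM in control medium (log2 fold change 4.29 ± 0.15), and Abcg2, a further efflux pump, had 52.7, 40.5 and 57.9 FPKM in differentiation medium, against 1.27, 1.43 and 1.36 FPKM in control medium. Sult1b1, a sulfotransferase, and Ugt2b34, a glucuronosyltransferase, rose by 3.95 and 3.36 on the log2 scale. Their regulator Nr1i2, the pregnane X receptor, had 53.7, 47.2 and 47.8 FPKM in differentiation medium, against 15.97, 14.3 and 13.002 FPKM in control medium (log2 fold change 1.71 ± 0.21). The fallers were Ahr, the aryl hydrocarbon receptor (-0.63), and the glutathione transferase Mgst1 (-0.703), both under 6 FPKM in every mid library. Mgst1 lost its call when differentiation replicate 3 (adjusted p = 0.135), control replicate 1 (0.0976) or control replicate 2 (0.0629) was left out.

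Retinoid genes moved in both directions. Rbp2, which binds retinol inside absorptive cells, had 112, 67.2 and 138 FPKM in differentiation medium, against 0.591, 1.86 and 2.24 FPKM in control medium. Of the retinal dehydrogenases, which make retinoic acid, Aldh1a1 had 122, 84.6 and 91.1 FPKM in differentiation medium, against 2.44, 2.66 and 2.32 FPKM in control medium, and Aldh1a3 had 3.71, 4.11 and 9.51 FPKM in differentiation medium, against 85.6, 103 and 128 FPKM in control medium. Aldh1a1 thus rose by 4.83 ± 0.26 and Aldh1a3 changed by -4.06 ± 0.65 on the log2 scale. Stra6, the membrane receptor for retinol, changed by -2.45 ± 0.28, and over the list 10 of 14 genes were called higher and 2 lower, or 7 and 3 after rescaling. Lipid handling genes were called higher in 10 of 12 cases and lower in none. Among them Slc51b, a subunit of the bile acid exporter, had 37.3, 42.2 and 28.9 FPKM in differentiation medium, against 0.334, 0.865 and 0.361 FPKM in control medium, Slc10a2, the bile acid importer, had 34.4, 40.4 and 44.1 FPKM in differentiation medium, against 2.5005, 3.24 and 3.64 FPKM in control medium, and Apob, the scaffold of lipoproteins, had 35.1, 46.8 and 54.4 FPKM in differentiation medium, against 4.34, 10.3 and 21.5 FPKM in control medium.

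The largest fall on the fitted scale was that of Spp1, or osteopontin, a secreted matrix protein, with 0.0796, 0.647 and 0.552 FPKM in differentiation medium, against 61.5, 70.8 and 58.7 FPKM in control medium (log2 fold change -5.52 ± 0.45, adjusted p = 1.15e-07). Nox1, the superoxide-making oxidase of the colon, had 0.615, 0.379 and 0.0733 FPKM in differentiation medium, against 51.8, 45.9 and 28.9 FPKM in control medium (log2 fold change -4.97 ± 0.33). Fn1, or fibronectin, had 1.48, 3.84 and 5.58 FPKM in differentiation medium, against 46.03, 94.5 and 234 FPKM in control medium (log2 fold change -4.57 ± 0.91). The differentiation libraries were at or near 0 for Spp1 and Nox1 and below every control library for all 3 genes. The keratin Krt14 had 0.149, 0.2497 and 0.172 FPKM in differentiation medium, against 12.1, 27.1 and 26.5 FPKM in control medium, Ccn2, a secreted target of the YAP pathway, had 4.86, 9.796 and 10.9 FPKM in differentiation medium, against 105, 158 and 244 FPKM in control medium, and Pmepa1, a feedback gene of TGF-beta signalling, had 1.13, 1.75 and 2.67 FPKM in differentiation medium, against 32.7, 47.3 and 61.7 FPKM in control medium. The other 14 of the 20 largest falls, with log2 fold changes from -4.06 to -3.55, were Aldh1a3, the decoy receptor Tnfrsf11b, the membrane protein Ifitm3, the replication genes Mcm3, Mcm5, Mcm6 and Uhrf1, the mitotic genes Top2a and Pbk, the stem cell factor Ascl2, the desmosome gene Pkp1, the cysteine dioxygenase Cdo1, the protease inhibitor gene Ctla2a and a segment annotated as Trbc1.

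Of 21 crypt stem cell and Wnt pathway genes, 16 were called lower and 3 higher (median log2 fold change -2.06). Lgr5, the R-spondin receptor that marks colon stem cells, had no read in the 3 differentiation libraries and 5.05, 4.62 and 4.15 FPKM in the control libraries. Taking 3 reads as the limit for its 3 libraries together, its level was at least 752-fold lower in differentiation medium, a bound that covers counting error only. This bound is on FPKM without the added 1, so it cannot be ranked with the fitted folds. Ascl2, the transcription factor of stem cells, had 0, 0.0386 and 0.261 FPKM in differentiation medium, against 10.5, 14.7 and 11.2 FPKM in control medium. Axin2, a direct Wnt target, had 0.512, 0.968 and 0.495 FPKM in differentiation medium, against 13.1, 13.8 and 13.2 FPKM in control medium (log2 fold change -3.13 ± 0.32), Sox9 had 2.62, 3.56 and 3.27 FPKM in differentiation medium, against 30.4, 33.95 and 36.4 FPKM in control medium, and Myc had 10.9, 16.96 and 13.5 FPKM in differentiation medium, against 87.6, 104 and 94.5 FPKM in control medium (log2 fold change -2.72 ± 0.38). All 3 differentiation libraries lay below the control libraries for each of these. The genes that rose were Prom1, a membrane protein that is not limited to stem cells (1.68 on the log2 scale), Lgr4, the broadly expressed relative of Lgr5 (0.98), and the Wnt receptor Fzd5 (0.796, and 0.38 without a call after rescaling). Since whole cultures were sequenced, fewer cells of a type and less RNA per cell cannot be told apart.

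DNA replication genes fell in 41 of 43 cases and none rose (median log2 fold change -2.07), and all 43 were called lower after rescaling. The 6 subunits of the replicative helicase fell together, by log2 fold changes of -2.89 for Mcm2, -3.71 for Mcm3, -2.64 for Mcm4, -3.65 for Mcm5, -3.59 for Mcm6 and -2.85 for Mcm7. Mcm6 had 2.21, 2.27 and 1.79 FPKM in differentiation medium, against 35.1, 40.02 and 33.3 FPKM in control medium. Pcna, the sliding clamp that also serves repair, fell less, with 30.9, 24.1 and 29.2 FPKM in differentiation medium, against 58.1, 61.2 and 46.04 FPKM in control medium (log2 fold change -0.95 ± 0.31, adjusted p = 0.014, and 0.0505 without differentiation replicate 2). Cdc25a (-0.13) and Rfc2 (-0.18) were the members without a call.

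Mitotic genes fell in 31 of 32 cases, with a median log2 fold change of -2.51. Top2a, which untangles sister chromosomes, had 2.19, 2.75 and 1.63 FPKM in differentiation medium, against 41.4, 40.7 and 32.4 FPKM in control medium, and Cdc20, an activator of the anaphase-promoting complex, had 3.48, 5.87 and 2.63 FPKM in differentiation medium, against 50.8, 54.9 and 42.8 FPKM in control medium. Pttg1, or securin, which holds sister chromatids together until anaphase, was the exception, with 12.3, 9.69 and 9.28 FPKM in differentiation medium, against 6.78, 5.85 and 5.28 FPKM in control medium (log2 fold change 0.71 ± 0.18, and 0.32 without a call after rescaling).

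The letters bound by the regulators of these phases were counted in the same promoter windows. TTTCCCGC or TTTGGCGC, forms of the E2F site, stood on either strand in 12 of 34 replication windows (35.3%), in none of 26 mitotic windows and in 3.59% of all 8660. TTTGAA, the core of the cell cycle homology region bound by the DREAM and MuvB complexes, stood in 17 of 26 mitotic windows (65.4%), in 5 of 34 replication windows (14.7%) and in 14.1% of all. CCAAT, the site of NF-Y, stood in 18 of the mitotic windows (69.2%) and in 43.1% of all. The windows of 4 genes are printed to show where these letters stand, each 150 bases long: Mcm5 (chr8:75109359-75109508, plus strand) and Mcm6 (chr1:128359706-128359855, minus strand) with the E2F letters in capitals, and Top2a (chr11:99024190-99024339, minus strand) and Cdc20 (chr4:118437344-118437493, minus strand) with TTTGAA and CCAAT, on either strand, in capitals.
Mcm5: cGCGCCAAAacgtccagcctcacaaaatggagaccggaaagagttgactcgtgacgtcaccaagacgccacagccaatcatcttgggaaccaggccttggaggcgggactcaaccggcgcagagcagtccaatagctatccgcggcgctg
Mcm6: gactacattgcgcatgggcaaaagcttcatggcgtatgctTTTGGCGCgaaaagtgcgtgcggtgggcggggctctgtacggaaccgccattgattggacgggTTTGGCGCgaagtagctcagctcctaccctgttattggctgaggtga
Top2a: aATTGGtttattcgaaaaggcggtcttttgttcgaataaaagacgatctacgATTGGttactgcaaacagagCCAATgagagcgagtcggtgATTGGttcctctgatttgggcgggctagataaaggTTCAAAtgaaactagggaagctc
Cdc20: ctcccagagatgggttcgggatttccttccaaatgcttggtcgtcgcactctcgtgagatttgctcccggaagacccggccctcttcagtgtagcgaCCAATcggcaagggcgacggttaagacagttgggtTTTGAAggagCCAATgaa
The E2F letters began 149 bases before the start of Mcm5, at the far end of its window, and 110 and 47 bases before that of Mcm6. The TTTGAA letters began 23 bases before the start of Top2a and 18 bases before that of Cdc20.

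Genes that restrain the cycle rose in 11 of 16 cases, and 1 fell. Cdkn1a, the p21 inhibitor of cyclin-dependent kinases, had 286, 231 and 313 FPKM in differentiation medium, against 67.5, 60.005 and 54.5 FPKM in control medium (log2 fold change 2.16 ± 0.17), and Mxd1, a repressor that competes with Myc, had 212, 175 and 278 FPKM in differentiation medium, against 22.1, 22.99 and 29.9 FPKM in control medium (log2 fold change 3.08 ± 0.298). The faller was Cdkn2c, a p18 inhibitor that is expressed in dividing cells, at -2.04 on the log2 scale. Cdkn1b, or p27, was not called, with 20.7, 13.99 and 23.6 FPKM in differentiation medium, against 13.01, 11.1 and 9.39 FPKM in control medium. Its libraries did not overlap, and several alternatives, though not all, called it higher. Among these were a fit of only the mid groups (log2 fold change 0.73, adjusted p = 0.0116) and limma voom (0.78, adjusted p = 0.0422). Others were the fits without proximal differentiation replicate 1 (adjusted p = 0.0409) or mid differentiation replicate 2 (log2 fold change 0.94, adjusted p = 0.027).

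The machinery of growth fell with division. All 32 ribosome biogenesis genes that passed the filter were called lower (median log2 fold change -1.91), as they were after rescaling. Npm1, a nucleolar chaperone, had 63.2, 56.9 and 50.8 FPKM in differentiation medium, against 229.6, 253 and 204 FPKM in control medium (log2 fold change -1.99 ± 0.21), and Fbl, or fibrillarin, had 4.098, 5.26 and 3.64 FPKM in differentiation medium, against 28.2, 31.7 and 26.3 FPKM in control medium. Cytosolic ribosomal proteins, a family added after values were seen and matched by symbol, were called lower in 78 of 79 cases, with a median log2 fold change of -1.34. Mitochondrial ribosomal proteins, matched likewise, fell in 38 of 74 cases and rose in 3 (median -0.41). Of 25 genes for the synthesis of nucleotides, serine, one-carbon units and polyamines, 24 fell and none rose. Shmt2, a serine hydroxymethyltransferase of mitochondria, had 4.32, 4.38 and 3.003 FPKM in differentiation medium, against 39.2, 44.7 and 32.4 FPKM in control medium (log2 fold change -3.02 ± 0.42), and Phgdh, the entry to serine synthesis, had 4.54, 8.68 and 7.902 FPKM in differentiation medium, against 52.02, 60.7 and 52.3 FPKM in control medium.

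**Figure D3:**
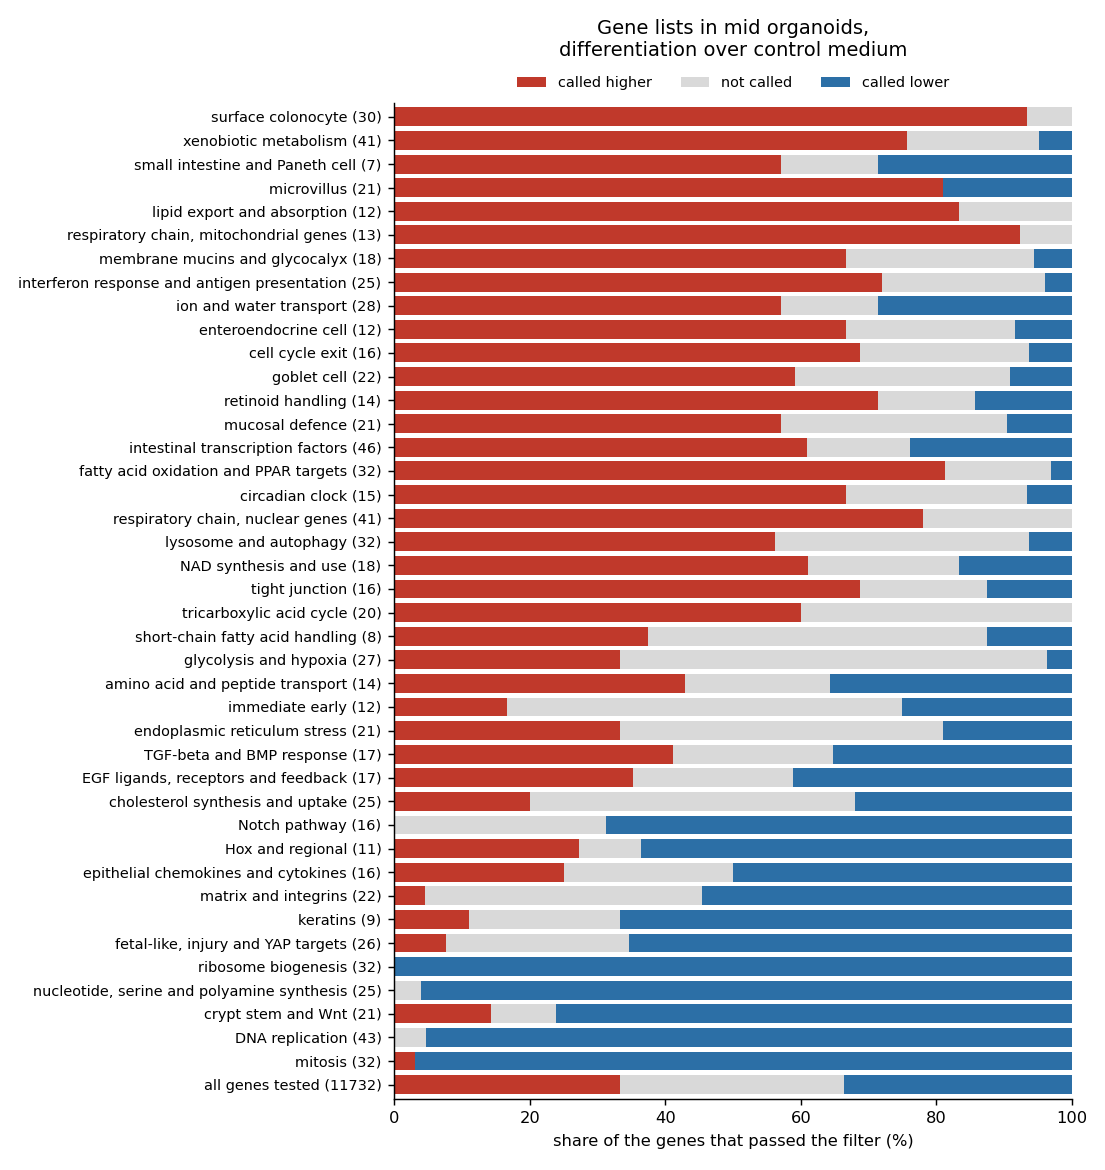
Bars give, for each gene list, the share of its genes passing the filter that were called higher in differentiation medium (red), not called (grey) or called lower (blue), with the number of genes in brackets and the lists ordered by median log2 fold change. All 11732 genes are in the lowest bar (33.4% higher, 33.6% lower); rescaling to summed reads lowers the red share, most clearly for the nuclear respiratory chain genes, from 32 to 16 of 41.

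Of 22 goblet cell genes, 13 were called higher and 2 lower (4 lower after rescaling), with a median log2 fold change of 0.87. Zg16, a lectin of the mucus, had 1101, 653 and 766 FPKM in differentiation medium, against 14.6, 16.7 and 21.03 FPKM in control medium (log2 fold change 5.49 ± 0.54), Clca1, a mucus protease, had 593, 367 and 453 FPKM in differentiation medium, against 31.2, 20.5 and 27.7 FPKM in control medium, and the gel-forming mucin Muc2 had 53.6, 37.8 and 32.1 FPKM in differentiation medium, against 8.81, 3.88 and 7.55 FPKM in control medium (log2 fold change 2.48 ± 0.36). The lineage factors Atoh1 and Spdef were not called: Atoh1 had 10.3, 7.54 and 3.97 FPKM in differentiation medium, against 6.39, 4.48 and 3.09 FPKM in control medium, and Spdef had 10.3, 5.79 and 5.76 FPKM in differentiation medium, against 7.53, 3.97 and 4.09 FPKM in control medium. Atoh1 was called higher without differentiation replicate 3 (adjusted p = 0.0303) and Spdef without control replicate 1 (adjusted p = 0.0343). With the replicate number as a block in the 6 mid libraries, both were called higher (adjusted p = 0.00531 for Atoh1 and 0.00346 for Spdef). The labels do not say that libraries of the same number are pairs. Those that fell were the secretory cell factors Foxa3 (-1.11 on the log2 scale) and Creb3l1 (-1.69).

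Of 12 enteroendocrine genes 8 were called higher and 1 lower. The hormone gene Pyy had 75.98, 45.7 and 75.8 FPKM in differentiation medium, against 14.7, 8.02 and 17.9 FPKM in control medium (log2 fold change 2.23 ± 0.37), Insl5 had 25.4, 14.1 and 8.29 FPKM in differentiation medium, against 3.73, 2.12 and 1.49 FPKM in control medium, and the granule protein Chga had 6.997, 3.69 and 7.35 FPKM in differentiation medium, against 2.22, 1.78 and 1.69 FPKM in control medium. Neurog3, the factor that starts this lineage, was the gene called lower, with 0.9795, 1.05 and 0.2897 FPKM in differentiation medium, against 2.44, 2.11 and 0.673 FPKM in control medium (log2 fold change -0.59 ± 0.24). It lost its call without differentiation replicate 3 (log2 fold change -0.38), control replicate 1 (-0.39) or control replicate 2 (-0.47). None of 18 tuft cell genes, among them Dclk1, Trpm5 and Pou2f3, passed the filter. Their summed level was 0.938 to 1.34 FPKM in differentiation medium and 1.88 to 2.34 FPKM in control medium.

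Notch pathway genes fell in 11 of 16 cases and none rose. The ligand Jag1 had 3.51, 4.11 and 2.71 FPKM in differentiation medium, against 10.1, 10.6 and 17.6 FPKM in control medium (log2 fold change -1.61 ± 0.29), the receptor Notch1 had 0.806, 0.881 and 0.452 FPKM in differentiation medium, against 2.98, 2.38 and 2.404 FPKM in control medium, and the modifier Lfng had 0.733, 0.501 and 0.653 FPKM in differentiation medium, against 7.06, 8.91 and 8.55 FPKM in control medium. Hes1, the main target in the gut, had 26.1, 29.1 and 27.7 FPKM in differentiation medium, against 34.4, 37.3 and 33.3 FPKM in control medium, a smaller log2 fold change of -0.33 ± 0.13. That call was lost when differentiation replicate 1 or 3 or control replicate 1 or 2 was left out (adjusted p = 0.0555 to 0.1). Without differentiation replicate 3, Atoh1 became the list's 1 riser.

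Genes of the regenerating and fetal-like state and targets of YAP fell in 17 of 26 cases and rose in 2 (median log2 fold change -1.35). Clu, a marker of a revival stem cell state, had 94.4, 169.8 and 201 FPKM in differentiation medium, against 502, 837 and 1368 FPKM in control medium (log2 fold change -2.48 ± 0.66), and Ccn1, a YAP target, had 2.01, 2.92 and 4.35 FPKM in differentiation medium, against 15.6, 28.1 and 48.7 FPKM in control medium. Ly6a, the Sca-1 antigen that is often used as a marker of the same state, was not called, with 642, 786 and 736 FPKM in differentiation medium, against 641, 797 and 913 FPKM in control medium, and its libraries overlapped. The genes called higher were Il1rn (0.76) and Lats2 (0.37), and no gene of this list was called higher after rescaling. Lats2 lost its call without differentiation replicate 1 (adjusted p = 0.063) or control replicate 2 (0.0888).

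Growth factor response genes had no common direction, with shares near those of all genes (33.4% higher and 33.6% lower). Of 17 TGF-beta and BMP response genes, 7 were called higher and 6 lower, or 5 and 8 after rescaling. The BMP targets Id1 and Id3 rose, with Id1 at 125, 119.5 and 123 FPKM in differentiation medium, against 18.9, 27.6 and 25.4 FPKM in control medium and Id3 at 17.9, 17.4 and 12.8 FPKM in differentiation medium, against 0.503, 1.14 and 1.03 FPKM in control medium, and so did the ligand gene Bmp2, with 73.6, 68.01 and 78.3 FPKM in differentiation medium, against 12.1, 7.46 and 7.65 FPKM in control medium (log2 fold change 2.91 ± 0.35). The TGF-beta target Pmepa1 fell, with a log2 fold change of -4.07 ± 0.44, as did the ligand gene Tgfb1 (-1.68). In the EGF system 6 of 17 genes were called higher and 7 lower, or 3 and 8 after rescaling. The receptors Erbb2 and Erbb3 rose, by 1.33 and 1.700 on the log2 scale, while Egfr was not called (-0.63, and -1.03 with a call after rescaling). The ligand Areg had 25.3, 33.2 and 45.9 FPKM in differentiation medium, against 81.5, 84.98 and 98.8 FPKM in control medium (log2 fold change -1.36 ± 0.41), and the target gene Etv4 had 0.782, 1.56 and 1.41 FPKM in differentiation medium, against 19.2, 15.7 and 14.7 FPKM in control medium (log2 fold change -2.97 ± 0.27).

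Adhesion genes moved in both directions. Of 22 matrix and integrin genes 12 fell and 1 rose, the laminin gene Lamb3 (0.84 on the log2 scale), and none rose after rescaling or without differentiation replicate 2 or 3 or control replicate 1 or 2. Itga2, a collagen receptor subunit, had 7.66, 10.4 and 8.52 FPKM in differentiation medium, against 37.5, 39.2 and 56.8 FPKM in control medium (log2 fold change -2.19 ± 0.34), while the basement membrane collagens Col4a1 (-0.035) and Col4a2 (-0.28) were not called, though Col4a2 was called lower after rescaling (-0.703). Of 9 keratins, 6 fell, Krt20 rose, and Krt8 and Krt19 were not called. Among 16 tight junction genes 11 were called higher and 2 lower, or 6 and 3 after rescaling, and 1 lower without differentiation replicate 1 or 2 or control replicate 2 or 3. Cldn2, a leaky claudin of crypts, had 1.07, 0.8297 and 0.30997 FPKM in differentiation medium, against 13.4, 10.5 and 9.12 FPKM in control medium (log2 fold change -2.803 ± 0.38), whereas Cldn23, a claudin of surface cells, had 37.9, 33.1 and 64.3 FPKM in differentiation medium, against 10.3, 12.9 and 18.8 FPKM in control medium. Glycocalyx genes rose in 12 of 18 cases and fell in 1 (in 3 after rescaling), led by the sialyltransferase St3gal4, with 459.7, 373 and 471 FPKM in differentiation medium, against 35.8, 28.4 and 23.6 FPKM in control medium.

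Of 46 intestinal transcription factors 28 were called higher and 11 lower, or 22 and 14 after rescaling. Klf4, which restrains division in the upper crypt, had 339.6, 293 and 358 FPKM in differentiation medium, against 54.5, 38.4 and 32.6 FPKM in control medium (log2 fold change 2.98 ± 0.24). Hnf4a, a master factor of enterocyte genes, had 351, 319.9 and 398 FPKM in differentiation medium, against 143, 125 and 114 FPKM in control medium (log2 fold change 1.48 ± 0.203), and Cdx2, the factor of intestinal identity, had 108, 113 and 117 FPKM in differentiation medium, against 64.7, 58.8 and 42.004 FPKM in control medium. Nuclear receptors rose too: Vdr, the vitamin D receptor, had 146, 128 and 119 FPKM in differentiation medium, against 15.1, 10.9 and 7.79 FPKM in control medium (log2 fold change 3.47 ± 0.22), and Nr1h4, the bile acid receptor, had 29.4, 28.1 and 17.5 FPKM in differentiation medium, against 6.53, 3.64 and 2.98 FPKM in control medium. The fallers included the chromatin factor Hmga1, with 33.98, 37.2 and 40.6 FPKM in differentiation medium, against 155, 155 and 143 FPKM in control medium (log2 fold change -1.99 ± 0.23), and Sox4, a factor of progenitors (-1.49). Of 11 Hox and other regional genes tested, 3 were called higher and 7 lower, with Hoxa13 and Hoxb13 up by 1.36 and 0.98 on the log2 scale, and Hoxa9 and Hoxa10 changed by -1.82 and -1.02. Clock genes were called higher in 10 of 15 cases and lower in 1, or lower in 3 after rescaling. Dbp, a clock output factor, had 16.3, 15.3 and 16.6 FPKM in differentiation medium, against 4.69, 2.49 and 1.75 FPKM in control medium, and Arntl, which encodes the clock activator BMAL1, had 7.65, 6.91 and 9.24 FPKM in differentiation medium, against 2.42, 2.295 and 2.42 FPKM in control medium, so both the activator and its targets Nr1d1 (1.79) and Per2 (1.32) were higher.

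Interferon response and mucosal defence genes were mostly called higher, while chemokine and cytokine genes were more often called lower. Over all genes 33.4% were called higher and 33.6% lower. Of 25 interferon response and antigen presentation genes 18 were called higher and 1 lower, with a median log2 fold change of 1.25. B2m, the light chain of class I molecules, had 399, 317 and 404 FPKM in differentiation medium, against 104, 128 and 136 FPKM in control medium, and Irf7, an interferon-induced factor, had 18.4, 24.2 and 29.8 FPKM in differentiation medium, against 2.17, 4.07 and 5.28 FPKM in control medium (log2 fold change 2.41 ± 0.46). Among 21 mucosal defence genes 12 were called higher and 2 lower, or 4 lower without control replicate 1 or after rescaling. Pigr, which carries IgA across the epithelium, had 775, 572 and 415 FPKM in differentiation medium, against 160.0, 88.2 and 50.4 FPKM in control medium, Saa1 had 389, 266 and 431 FPKM in differentiation medium, against 4.25, 9.81 and 5.29 FPKM in control medium, and Il18 had 169, 176 and 159 FPKM in differentiation medium, against 41.8, 43.1 and 53.5 FPKM in control medium. The fallers were Nox1 and Ang4, a microbicidal ribonuclease with 1.57, 1.77 and 2.65 FPKM in differentiation medium, against 20.3, 21.98 and 26.9 FPKM in control medium. Of 16 chemokine and cytokine genes 4 were called higher and 8 lower. The decoy receptor Tnfrsf11b, or osteoprotegerin, had 2.58, 2.91 and 3.55 FPKM in differentiation medium, against 50.3, 57.9 and 90.96 FPKM in control medium, and the alarmin Il33 had 2.36, 4.08 and 2.14 FPKM in differentiation medium, against 16.3, 17.01 and 13.7 FPKM in control medium. Il15 was among those higher, with 13.8, 11.1 and 12.2 FPKM in differentiation medium, against 3.96, 3.16 and 3.51 FPKM in control medium.

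Several housekeeping lists had modest median log2 fold changes (-0.059 to 0.54), and each leaned less to higher calls after rescaling. Of 27 glycolysis and hypoxia genes 9 were called higher and 1 lower, but 4 and 4 after rescaling. Of 21 genes of endoplasmic reticulum stress 7 were called higher and 4 lower, or 4 and 7 after rescaling. Lysosomal and autophagy genes were called higher in 18 of 32 cases and lower in 2, or 9 and 8 after rescaling. Of 18 genes for NAD synthesis and use 11 were called higher and 3 lower, or 8 and 4 after rescaling. Naprt, which makes NAD from nicotinic acid, had 42.4, 37.6 and 38.9 FPKM in differentiation medium, against 5.02, 5.71 and 3.67 FPKM in control medium (log2 fold change 2.82 ± 0.296), and Parp1, which consumes NAD at DNA breaks, had 4.15, 3.802 and 2.21 FPKM in differentiation medium, against 20.5, 18.6 and 16.1 FPKM in control medium (log2 fold change -2.17 ± 0.35).

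Cholesterol genes had no common direction in mid organoids. Of 25 genes 5 were called higher and 8 lower, against 33.4% higher and 33.6% lower over all genes, and after rescaling 4 and 16. The median log2 fold change was -0.17, with members from -2.22 to 1.57. The 8 became 5 without differentiation replicate 3 and 4 without control replicate 1. Hmgcs1, the synthase that opens the pathway, had 137, 130.3 and 134 FPKM in differentiation medium, against 82.5, 75.4 and 68.1 FPKM in control medium (log2 fold change 0.83 ± 0.15). All 3 differentiation libraries lay above the control libraries. Insig1, a brake on the pathway that is itself sterol-regulated, rose by 1.57 on the log2 scale. Hmgcs1 and Insig1 are examples of the rising side only.

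At the threshold itself, the last gene called was Klc3, a kinesin light chain, with a log2 fold change of -0.57 ± 0.24 and an adjusted p of 0.0496. It lost its call when any mid library other than control replicate 1 was left out (adjusted p = 0.0685 to 0.142). The first not called was the keratin Krt10 (0.29 ± 0.13, adjusted p = 0.05), which was called without differentiation replicate 2 (adjusted p = 0.039). The change of Krt10 was smaller than the shift of the median on rescaling given above, and that of Klc3 was larger.

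The mid response was set against those of the other regions for the same 11732 genes, with the difference in response tested in the same model. Differentiation medium moved 66.2% of these genes past the threshold in distal organoids and 55.8% in proximal ones, against 66.9% in mid ones. The genes were filtered on the mid libraries alone. Genes expressed only in another region are thus left out, while genes near 0 there are kept, which can lower that region's share. The response differed between mid and distal organoids for 2 genes (0.0170%), and between mid and proximal organoids for 1448 (12.3%), of which 687 had the higher log2 fold change in mid (5.86%) and 761 the lower (6.49%). The median standard error of either difference was 0.226 on the log2 scale. The estimated response differed from that of distal organoids by at least 1 log2 unit for 143 genes, yet only 2 were called. An estimate of that size can therefore go without a call for a single gene, and the few calls do not show equal responses. The unadjusted limma p was under 0.05 for 3.37% of genes against distal organoids and for 28.3% against proximal ones. Across genes, which are not independent replicates, the mid log2 fold changes had a Pearson correlation of 0.964 with the distal ones and 0.824 with the proximal ones. Of the genes called in mid organoids, 6933 were called in the same direction in distal organoids and 2 in the opposite one. For proximal organoids these numbers were 5280 and 100.

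The proximal comparison rests on a less uniform group. The library of proximal organoids in differentiation medium, replicate 1, had a mean log2(FPKM + 1) over DNA replication genes of 2.48, against 1.17 and 1.30 in the other replicates and 2.08 to 2.92 in proximal control libraries. Without it, 1446 genes still differed between mid and proximal responses. The count fell to 875 without proximal control replicate 2, 910 without proximal control replicate 3 and 881 without mid control replicate 2.

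The genes called different between mid and distal organoids were both stronger in mid ones, and both lay under 10 FPKM. Adra2a, an adrenergic receptor that inhibits cyclic AMP, had 6.58, 6.19 and 6.04 FPKM in differentiation medium, against 0.255, 0.169 and 0.127 FPKM in control medium, while distal organoids had 0.751 ± 0.166 FPKM in differentiation medium and 0.0587 ± 0.0264 FPKM in control medium. Its difference in log2 fold change was 1.897 ± 0.17 (adjusted p = 0.000102). Gramd1b, a carrier of cholesterol between membranes, had 3.13 ± 0.475 FPKM in differentiation medium and 0.6603 ± 0.0482 FPKM in control medium, and distal organoids had 1.02 ± 0.123 FPKM in differentiation medium and 0.778 ± 0.216 FPKM in control medium (difference 1.12 ± 0.17, adjusted p = 0.0369). Gramd1b lost its call in 8 of 12 fits that left out a mid or distal library (adjusted p = 0.0515 to 0.128), holding without mid differentiation replicate 2, distal differentiation replicate 2 or distal control replicate 2 or 3, and both genes lost it on recovered reads fitted with limma voom (adjusted p = 0.999 for Adra2a and 0.115 for Gramd1b). Neither reached the level set for naming, and they are given because they were the only calls.

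Of the 687 genes with the higher response in mid than in proximal organoids, 6 were among the 30 surface colonocyte genes, and the largest differences are given here. Aqp8 averaged 3078 ± 955 FPKM in differentiation medium and 18.4 ± 3.57 FPKM in control medium in mid organoids, and 0.4001 ± 0.208 FPKM in differentiation medium and 0.276 ± 0.264 FPKM in control medium in proximal ones (difference in log2 fold change 7.13 ± 0.45, adjusted p = 2.99e-07). Slc37a2 (difference 6.55), Car4 (6.104) and Tgm3 (5.68) were at or below 1 FPKM on average in both media in proximal organoids. The pentraxin gene Mptx1, the trypsin inhibitor gene Spink1 and Nxpe4 had the same pattern, with differences of 4.23, 4.08 and 3.96. Lor, or loricrin, differed otherwise. It had 77.8, 113 and 48.9 FPKM in differentiation medium, against 80.4, 87.2 and 42.8 FPKM in control medium, without a call in mid organoids, but 6.53 ± 5.23 FPKM in differentiation medium and 103 ± 48.2 FPKM in control medium in proximal ones (difference 4.06 ± 1.09, adjusted p = 0.0247). That call was lost without proximal differentiation replicate 2, proximal control replicate 2 or 3, mid differentiation replicate 1 or 2, or mid control replicate 3 (adjusted p = 0.0507 to 0.0643).

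The genes with the lower response in mid organoids were of several kinds. Cyp4b1, a P450, averaged 1.48 ± 0.449 FPKM in differentiation medium and 0.0356 ± 0.0435 FPKM in control medium in mid organoids and 43.9 ± 24.1 FPKM in differentiation medium and 0.448 ± 0.168 FPKM in control medium in proximal ones (difference -3.58 ± 0.38, adjusted p = 2.78e-05). Guca2b had a proximal log2 fold change of 3.36 ± 0.36, against -0.18 ± 0.36 in mid organoids. Xpnpep2, a membrane peptidase, rose in mid organoids by 0.96 and in proximal ones by 3.91 on the log2 scale. The mid rise lost its call when any mid library but control replicate 1 was left out (adjusted p = 0.0552 to 0.103), and after rescaling. Acsf2, an acyl-CoA synthetase, moved in opposite directions, with -1.63 ± 0.34 in mid and 1.21 ± 0.34 in proximal organoids. Nox1, Ifitm3, Lgals1 and Cdo1 fell in mid organoids (log2 fold changes -4.97, -3.87, -3.396 and -3.598) and averaged under 3 FPKM in proximal organoids in either medium. Where a gene is near 0 in some of the groups compared, the size of the difference depends on the added 1. For Cyp4b1 these groups were both mid groups and proximal control medium. Fitted with limma voom on recovered reads, the difference was 1.95 for Car4, -1.05 for Cyp4b1 and -0.92 for Nox1, without a call. Tgm3, Spink1, Cdo1, Ifitm3 and Lgals1 were not called either.

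**Figure D4:**
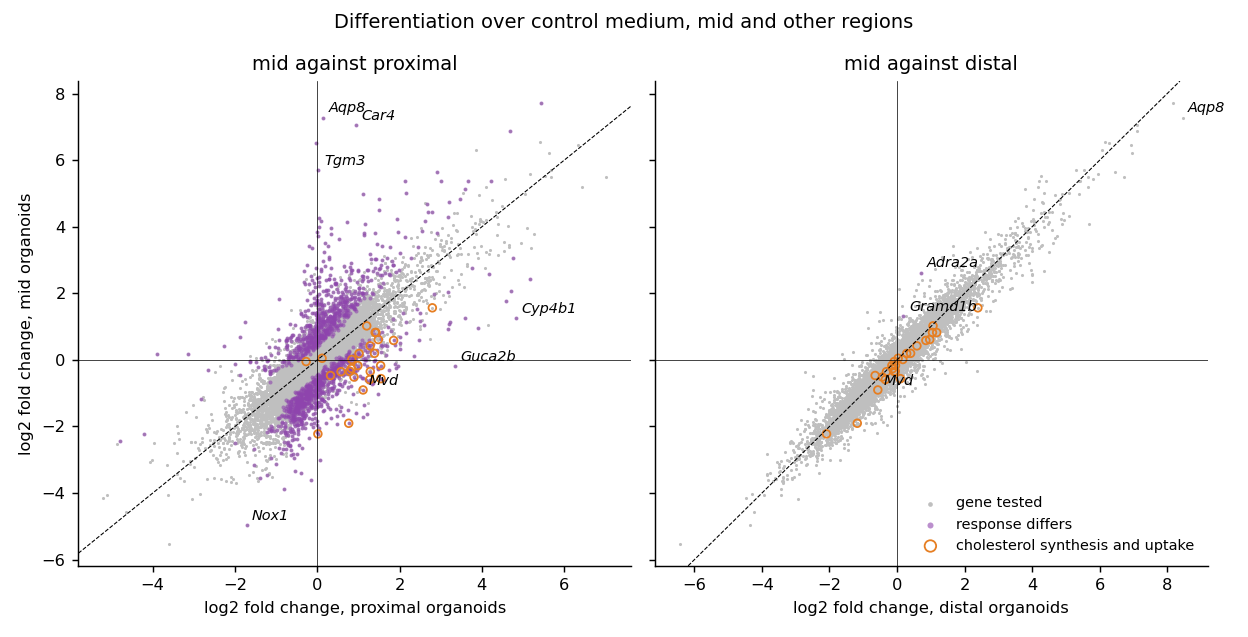
Each point is 1 of the 11732 genes, with its log2 fold change of differentiation over control medium in mid organoids on the vertical axis and in proximal (left) or distal (right) organoids on the horizontal axis; the dashed line marks equal values. Purple marks genes whose response differed (1448 at the left, 2 at the right), and orange rings mark the 25 cholesterol genes, which lie mostly right of the dashed line at the left and along it at the right.

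Among the lists, cholesterol genes had the largest share called different. In 16 of 25 the mid response was called lower than the proximal one, and in none higher, against 6.49% lower over all genes. Leaving out any library, or rescaling, gave 15 to 21 of 25. The median log2 fold change of the list was -0.17 in mid, -0.046 in distal and 1.11 in proximal organoids. Mvd, which makes isopentenyl diphosphate, averaged 35.4 ± 3.88 FPKM in differentiation medium and 67.2 ± 9.36 FPKM in control medium in mid organoids and 79.2 ± 4.17 FPKM in differentiation medium and 37.4 ± 12.8 FPKM in control medium in proximal ones (difference -2.01 ± 0.25, adjusted p = 0.000137). Cyp51, a lanosterol demethylase, had a log2 fold change of -0.17 ± 0.22 in mid organoids, called only after rescaling (-0.599), and 1.54 ± 0.22 in proximal ones (difference -1.71 ± 0.31, adjusted p = 0.00271). The regulator Srebf2 (difference -0.79) and its target Sqle (-1.19) were also called. Averaged over the 25 genes, mid libraries stood at 5.06 to 5.10 log2(FPKM + 1) in differentiation medium and 5.06 to 5.29 in control medium. Proximal libraries stood at 5.65 to 5.73 in differentiation medium and 4.41 to 5.06 in control medium, above the mid libraries in differentiation medium and at or below them in control medium.

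Of the genes encoded by the mitochondrial genome, 6 of 13 rose more in mid than in proximal organoids, and none less. Over all genes the mid response was called higher for 5.86% and lower for 6.49%. The 6 became 4 without proximal control replicate 2 or 3 or mid control replicate 1, and 9 without proximal control replicate 1. The list averaged 9.35 to 9.78 log2(FPKM + 1) in mid differentiation libraries and 7.66 to 7.996 in mid control libraries, against 7.89 to 8.15 in proximal differentiation libraries and 7.47 to 7.96 in proximal control libraries. Mid differentiation libraries therefore stood above every proximal library. Distal differentiation libraries stood at 9.19 to 9.86, so this level was not particular to mid organoids. DNA replication genes fell more in mid than in proximal organoids in 14 of 43 cases, against 6.49% lower over all genes. The 14 became 9 without proximal differentiation replicate 1, 4 without proximal control replicate 2 or 3 or mid control replicate 2, 5 without mid differentiation replicate 3 or mid control replicate 1, 7 without mid differentiation replicate 1 or 2, and 12 to 20 without any of the others. The median log2 fold change of these replication genes was -2.07 in mid, -1.69 in distal and -0.74 in proximal organoids.

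**Figure D5:**
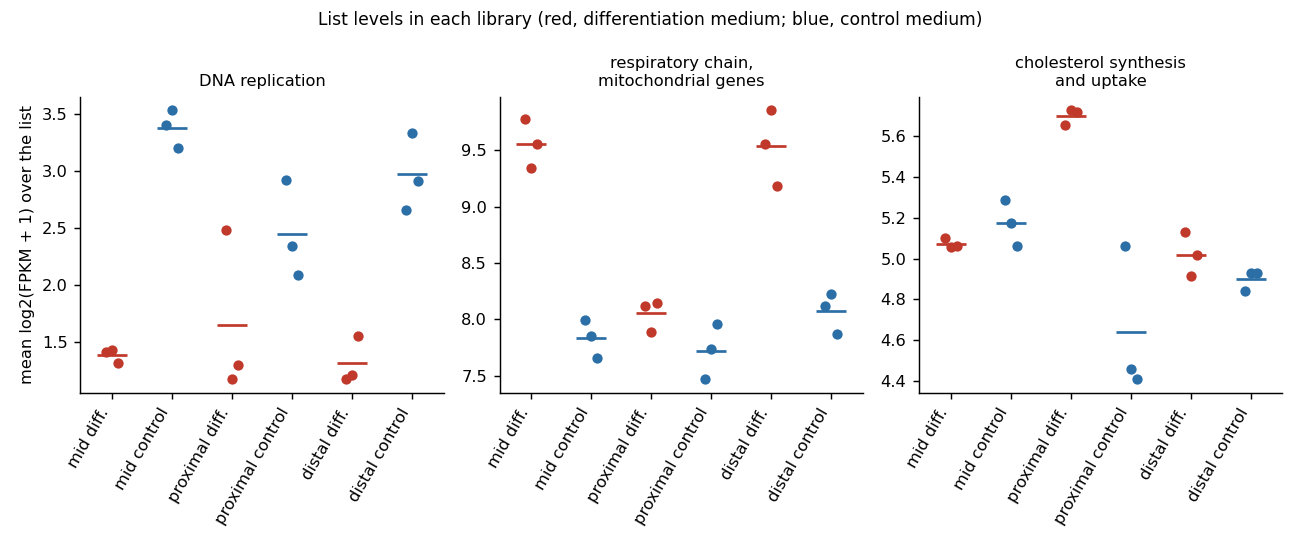
Points are the 18 libraries, each at its mean log2(FPKM + 1) over the genes of a list that passed the filter (43 replication, 13 mitochondrial and 25 cholesterol genes); lines are group means, red for differentiation and blue for control medium. Mitochondrial genes are highest in mid and distal differentiation libraries, cholesterol genes are highest in proximal differentiation libraries, and the highest red point among replication genes is the proximal replicate 1 at 2.48.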

How the data were processed

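The authors deposited 1 table with an FPKM value per gene and library, gene lengths and positions on mm39, per the file headers. Alignment used HISAT2 2.0.5 and read assignment featureCounts 1.5.0-p3, as listed in the submitters' processing notes. Annotation release, strand setting and library scaling are not given in the sources used here. FPKM times gene length fell on whole multiples of a step in 100% of values (tolerance 0.001 read), so read counts were recovered. Recovered depth was 12827751 to 19938198 reads per library. Summed reads were 1.13 to 1.21 times the library size behind the FPKM in mid differentiation libraries and 0.857 to 0.871 times in mid control libraries, which is why rescaling to summed reads was tried. The table's 6 group means equal the means of the 3 libraries and were not used, and 0 value columns were left unmapped.

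Genes with FPKM of at least 1 in at least 3 of the 6 mid libraries were tested as log2(FPKM + 1) with limma 3.58.1 in R 4.3.3 (6 group means over all 18 libraries, empirical Bayes with a trend, 12 residual degrees of freedom, two-sided), after a test on simulated data. Benjamini-Hochberg adjustment ran over the 11732 genes, with a threshold of 0.05. The difference in response, mid minus proximal or mid minus distal, was a contrast of the same model. Errors are standard errors of the fit (±, beside log2 values) or standard deviations over 3 libraries (beside mean FPKM).

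Named genes were the 20 largest rises and 20 largest falls among called genes of at least 10 FPKM in the higher medium without overlap, the 10 highest in each medium, the 8 largest differences in response each way, genes at the threshold, and members of 47 lists (1104 genes, 875 of them tested). Some list members are counted but not reported by name here. The genes and lists were chosen with earlier results of these data known. Promoters came from RefSeq on GRCm38.p6, matched by symbol, with no coordinates exchanged between builds. 1757 genes had more than 1 window, and a gene counted as holding a motif if any window did. Alternatives were a pseudocount of 0.1, no filter, a filter at 5 FPKM, rescaling to summed reads, limma voom on recovered reads, only the groups compared, the replicate number as a block, and leaving out libraries. For 3 against 3 single values an exact permutation test was used.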

Additional observations from a re-analysis of the deposited data

Results flagged for a closer look

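The results below stood out because the response to differentiation medium differed between mid organoids and another region by a test of the difference itself (limma, adjusted p under 0.05). Each value is the mid log2 fold change minus that of the other region. Against proximal organoids 1448 genes differed, and against distal organoids 2 genes did, Adra2a by 1.897 and Gramd1b by 1.12. Neither of these 2 was called with limma voom on recovered reads or with a pseudocount of 0.1.

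The mid response was higher than the proximal one for Aqp8 (7.13), Slc37a2 (6.55), Car4 (6.104), Tgm3 (5.68), Mptx1 (4.23), Spink1 (4.08), Lor (4.06) and Nxpe4 (3.96). It was lower for Cyp4b1 (-3.58), Guca2b (-3.54), Cdo1 (-3.44), Nox1 (-3.25), Ifitm3 (-3.07), Lgals1 (-2.99), Xpnpep2 (-2.95) and Acsf2 (-2.84). With limma voom on recovered reads Car4, Tgm3, Spink1, Cyp4b1, Cdo1, Nox1, Ifitm3 and Lgals1 were not called. Lor lost its call in several fits that left out a single library.

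Among cholesterol genes it was lower for Mvd (-2.01), Cyp51 (-1.71), Sqle (-1.19) and Srebf2 (-0.79).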

How the results depend on the processing

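The 7854 genes called in mid organoids became 7170 to 7390 when 1 mid library was left out (3591 to 3684 higher and 3573 to 3706 lower). Beyond a factor of 1.5, rescaling to summed reads left 2363 called higher, and a filter at 5 FPKM left 2505 called lower, since fewer genes were tested. Of the 875 listed genes tested 680 were called, and 574 to 761 under the alternatives. The mid minus proximal count of 1448 was 875 to 1598 with 1 library left out, and 1118 to 1904 under the other settings. The mid minus distal count of 2 became 0 with a pseudocount of 0.1 or limma voom, 9 without a filter, 1 with a filter at 5 FPKM or only the groups compared, 3 with rescaling, and 1 to 3 with 1 library left out. The mitochondrial share difference of 2.07 percentage points was 1.88 to 2.23. Over the named genes' values, 3043 kept their direction and side of the threshold, 76 lost the call and 23 gained it.
Replicates with the same number did not deviate together in all 3 pairs (correlations over genes 0.307, 0.045 and 0.295), so the numbers are not taken as pairs. With the replicate block 7980 genes were called in all 18 libraries and 8714 in the 6 mid libraries, 1604 differed for mid minus proximal and 2 for mid minus distal, and 5 of 6 mid libraries correlated best with their own number.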
